A study of Mus musculus with 12 samples.

Results

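The genes described here drive cell division: they copy DNA in S phase, carry the cell through G2 and mitosis, start the cycle in G1, or switch these genes on. They were chosen by name from a list of 36 symbols, of which 34 were found among the 19012 gene symbols of the deposited tables; Mki67 and Gins1 were not analysed here. The 34 genes comprise 15 of S phase, 3 G1 cyclins, 14 of G2 and mitosis and 2 transcription factors of the cycle. Poly(A) RNA had been measured in mouse small intestine, in freshly isolated crypts, freshly isolated villi and organoids that were grown from isolated crypts and kept in culture for 12 weeks. Each tissue came from 3 origins, duodenum, jejunum and ileum, in 12 libraries: 2 of crypts, 1 of organoids and 1 of villi at each origin. The labels name no genotype, strain, age or treatment for any group, and they do not say whether libraries came from separate animals, so the p-values measure only the spread between these samples. Organoids are epithelial cultures, and the labels do not say how many cultures went into an organoid library.

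In the small intestine, cells divide in the crypt. Stem cells at its base feed a zone of rapidly dividing progenitors, whose daughters stop dividing and differentiate as they move up onto the villus. Before S phase the MCM helicase is loaded at origins of replication with the help of Cdc6, G1 cyclins release E2F factors that switch on S phase genes, and later Foxm1 and B-Myb (Mybl2), acting on the DREAM-related complex MuvB, switch on the genes of mitosis.

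The libraries held between 5268480 and 18591819 reads, as implied by the deposited RPKM values (read numbers divided by exon length and by the library's depth). The summed level of 16 enterocyte markers was 52090 to 107000 RPKM in villi, 984 to 28010 in crypts and 3116 to 5966 in organoids, and a single gene, Apoa1, made up 40.4% to 58.3% of it in villi. All villus libraries lay above all crypt libraries for 8 of the 16 (16.7% of all tested genes). The marker 2010204N08Rik (sucrase-isomaltase) was at 121, 407 and 454 RPKM in duodenal, jejunal and ileal organoids and at 39.7 to 51.3 RPKM in villi, against the order of the sums. The sum of 12 stem cell markers was 22.6 to 48.0 RPKM in villi, 128 to 1225 in crypts and 570 to 756 in organoids, and Olfm4 made up 73.7% to 81.7% of it in organoids. The crypt replicates were unlike each other. Replicate 2 had more enterocyte marker RNA at each origin, with median log2 differences of 3.38, 3.23 and 2.89 for duodenum, jejunum and ileum over 16 of 16 markers each time, and less Paneth cell marker RNA, by medians of -1.97, -1.01 and -1.69 over 10 markers. In bulk RNA, fewer dividing cells and less RNA of these genes per cell cannot be told apart.

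All 34 genes were lower in villi than in crypts. Every crypt library lay above every villus library for each of them, a pattern that 31.9% of the 11691 tested genes showed. By limma on log2(RPKM + 1), 34 of 34 fell at an adjusted p under 0.05, beside 32.8% of all tested genes, while 20.5% of all genes rose. With median-of-ratios scaling 34 of 34 fell too; the split of all genes then went from 2401 higher and 3835 lower to 3658 and 3004, and their median from -0.20 to 0.03. The median log2 fold change of the 34 was -2.71, and that of all tested genes was -0.20. The ratio of mean RPKM, crypts over villi, ranged from 2.71 for Pcna to 35.1 for Hells, with a median of 11.3. In crypts the members lay at a median percentile of 77.6 among the tested genes by mean RPKM, in organoids at 69.9 and in villi at 29.8.

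**Figure D1:**
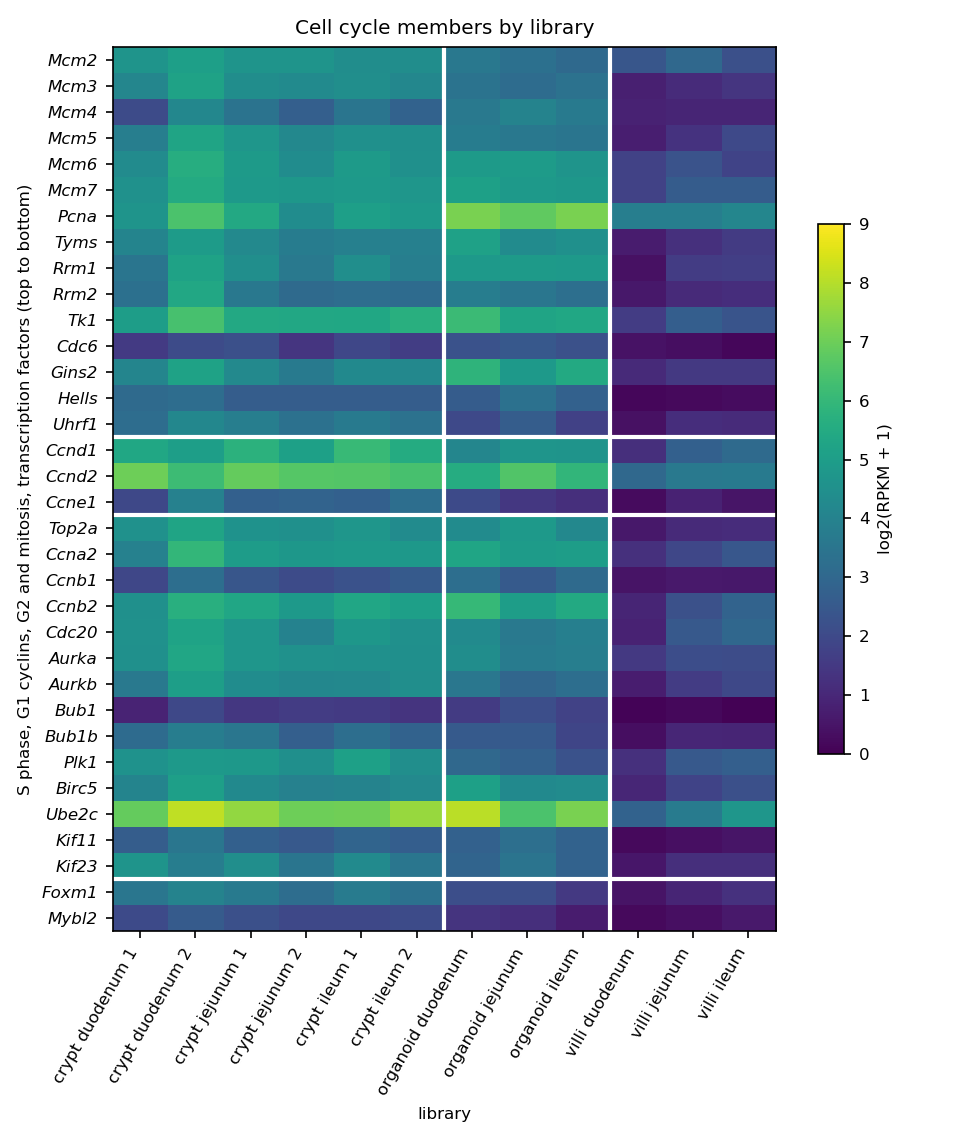
Level of each of the 34 genes, as log2(RPKM + 1) on the color scale, in each of the 12 libraries (columns), with rows grouped from top to bottom into S phase genes, G1 cyclins, G2 and mitosis genes and transcription factors. The 3 villus columns are darkest in every row except that of Plk1, where organoids overlap them, and duodenal crypt replicate 2 is the highest of the 6 crypt columns in 29 of 34 rows.

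Among the S phase genes, the 6 subunits of the MCM2-7 helicase, which unwinds DNA at the replication fork, summed to between 99.6 and 214 RPKM in crypts and between 11.4 and 19.8 RPKM in villi. Mcm3 had the largest log2 fold change of the 6, -3.36 (SE 0.27, limma adjusted p = 2.60e-06), and Mcm2 the smallest, -2.10 (SE 0.23, adjusted p = 1.43e-05). Mcm2 was at 4.28, 7.32 and 3.54 RPKM in duodenal, jejunal and ileal villi, against 20.1 to 33.1 RPKM in crypts with a median of 24.3. The RPKM of the groups did not overlap. Mcm2 made up 31.9% ± 9.22 (SD, n = 3) of the MCM2-7 RPKM in villi and 18.8% ± 3.56 (SD, n = 6) in crypts, and these shares overlapped, with a lowest villus share of 21.3% and a highest crypt share of 24.5%.

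The genes that supply nucleotides fell by similar amounts. Thymidylate synthase (Tyms), which makes dTMP, fell by 2.97 on the log2 scale, thymidine kinase (Tk1), which salvages thymidine, by 3.32, and the ribonucleotide reductase subunits Rrm1 and Rrm2, which make deoxyribonucleotides, by 2.96 and 2.68. Rrm1 was at 0.333, 2.04 and 2.16 RPKM in duodenal, jejunal and ileal villi and between 10.3 and 35.7 RPKM in crypts. Gins2, a subunit of the GINS complex that works with MCM2-7, fell by 2.92, and Cdc6, the loader of the helicase, by 1.47. Hells, a chromatin remodeler, fell by 2.58 and Uhrf1, which guides DNA methylation to newly copied DNA, by 2.70.

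Pcna, the sliding clamp that holds DNA polymerase on its template, changed least. It was at 13.5, 13.3 and 16.4 RPKM in duodenal, jejunal and ileal villi and at 19.98 to 86.4 RPKM in crypts, with a median of 30.7. Crypts and villi did not overlap, yet the lowest crypt library, jejunal replicate 2, lay close to the villi. The log2 fold change was -1.21 (SE 0.37, limma adjusted p = 0.0141), and without the duodenal villi the adjusted p was 0.0932.

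The genes of G2 and mitosis had log2 fold changes from -1.36 (Bub1) to -3.73 (Top2a), and all fell. Top2a, the topoisomerase that untangles chromosomes, was at 0.512, 1.08 and 1.2 RPKM in duodenal, jejunal and ileal villi. In crypts it lay between 19.5 and 37.5 RPKM with a median of 22.7, so that crypt levels were far above all villus levels. Its fold change was -3.73 (SE 0.26, limma adjusted p = 1.23e-06), a 26.8-fold ratio of means.

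Ube2c, the ubiquitin-conjugating enzyme of the anaphase-promoting complex, had the highest crypt level of the 34 genes, 173 ± 62.7 RPKM (SD, n = 6). It was at 6.15, 12.4 and 25.6 RPKM in duodenal, jejunal and ileal villi, with no overlap with the 117 to 283 RPKM in crypts. The cyclins Ccna2, Ccnb1 and Ccnb2, which activate cyclin-dependent kinases, fell by 3.02, 1.85 and 3.13. The mitotic kinases Aurka, Aurkb and Plk1 fell by 2.78, 2.87 and 2.56. Birc5 (survivin), a partner of Aurkb, fell by 2.62, the kinesins Kif11 and Kif23, which act on the spindle and in cytokinesis, by 2.49 and 3.06, and the spindle checkpoint kinase Bub1b by 2.48. Bub1, another checkpoint kinase, rested on 3, 8 and 2 reads in duodenal, jejunal and ileal villi, at 0.0528, 0.144 and 0.0381 RPKM, against at least 20 reads in each crypt library. For Cdc6, Hells, Ccne1 and Mybl2 a villus library also held fewer than 10 reads.

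The G1 cyclins and the transcription factors followed. Ccnd2, a D-type cyclin that pairs with Cdk4 and Cdk6, was at 7.15, 11.6 and 11.7 RPKM in duodenal, jejunal and ileal villi and at 71.5 to 128 RPKM in crypts. Its change of -3.16 on the log2 scale left no overlap (SE 0.27, limma adjusted p = 3.91e-06). Ccnd1 fell by 3.12 and Ccne1, which pairs with Cdk2 at the start of S phase, by 2.39. Foxm1 fell by 2.71 and Mybl2 by 1.71, the latter from a low crypt level of 3.41 ± 0.83 RPKM (SD, n = 6).

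Other genes of the same processes, listed apart from the 34, moved the same way. Among all tested genes 32.8% fell and 20.5% rose. Of 46 other licensing and replication genes 44 fell and none rose, among them the chromatin assembly factor subunit Chaf1b (-3.90) and the DNA ligase Lig1 (-3.03). Of 46 other mitosis genes 44 fell and none rose, among them the kinetochore gene Spc24 (-3.61) and the condensin subunit Ncaph (-3.16). Of 26 other G1/S control genes 18 fell and none rose, with E2f1 at -2.33 and Myc at -2.76.

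CDK inhibitors and antiproliferative genes, as a list, went the other way. Of 14 tested, 9 rose and 1 fell, beside 20.5% and 32.8% of all tested genes. The genes named below are not CDK inhibitors, and the count does not show how the inhibitors within the list moved. Mxd1, an antagonist of Myc, was at 162, 162 and 152 RPKM in duodenal, jejunal and ileal villi and at 2.50 to 15.1 RPKM in crypts, with a median of 4.68. Its log2 fold change was 4.66 (SE 0.45, limma adjusted p = 6.91e-06), and its highest crypt level was in ileal replicate 2. The cyclin G2 gene Ccng2 rose by 3.28, and the antiproliferative genes Btg1 and Tob1 by 1.69 and 1.37. Mxd1 and Ccng2 were higher in crypt replicate 2 than in replicate 1 at all 3 origins, as the enterocyte markers were; the part of enterocyte RNA in these values was not tested.

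The promoters of members that moved together are shown for the most highly expressed S phase and mitosis genes that carry the letters of a cell cycle motif. RefSeq's table (build GRCm38.p6) held the 250 bases before the start of 27 of the 34 genes. The E2F letters searched were TTTCCCGC, TTTCGCGC, TTTGCCGC and TTTGGCGC, the letters of the cell cycle homology region (CHR) were TTTGAA and TTTAAA, and the CCAAT box was CCAAT, each on both strands. The first lines are S phase genes with E2F letters and the last are mitosis genes with CHR letters; capitals mark these letters and CCAAT boxes on either strand, and some matches overlap. That the table reads along the gene was checked against transcript starts for Ube2c and Ccnb2; the check gave no match on either strand for Mcm7 and Mcm6.
Mcm7, chr5:138171884-138172133, reverse strand: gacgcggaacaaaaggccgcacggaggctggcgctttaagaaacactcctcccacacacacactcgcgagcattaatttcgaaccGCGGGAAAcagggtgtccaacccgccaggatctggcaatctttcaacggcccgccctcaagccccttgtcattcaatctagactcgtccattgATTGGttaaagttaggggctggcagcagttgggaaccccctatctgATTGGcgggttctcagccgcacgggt
Mcm6, chr1:128359706-128359955, reverse strand: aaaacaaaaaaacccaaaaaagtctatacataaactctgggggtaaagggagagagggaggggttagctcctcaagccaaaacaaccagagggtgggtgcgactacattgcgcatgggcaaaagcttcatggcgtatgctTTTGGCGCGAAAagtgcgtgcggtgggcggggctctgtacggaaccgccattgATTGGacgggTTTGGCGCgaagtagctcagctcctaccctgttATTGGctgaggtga
Ube2c, chr2:164769679-164769928, forward strand: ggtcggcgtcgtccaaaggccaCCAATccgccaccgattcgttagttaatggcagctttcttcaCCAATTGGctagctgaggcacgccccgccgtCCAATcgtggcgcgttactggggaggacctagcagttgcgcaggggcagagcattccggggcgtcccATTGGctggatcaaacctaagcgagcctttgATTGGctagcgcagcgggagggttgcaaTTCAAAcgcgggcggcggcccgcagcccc
Ccnb2, chr9:70421555-70421804, reverse strand: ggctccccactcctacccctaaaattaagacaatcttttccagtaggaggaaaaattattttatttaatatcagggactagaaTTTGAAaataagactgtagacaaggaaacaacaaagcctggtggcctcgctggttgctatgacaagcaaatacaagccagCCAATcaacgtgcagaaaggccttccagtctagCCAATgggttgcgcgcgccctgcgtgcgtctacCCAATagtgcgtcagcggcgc

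The E2F letters stood in 5 of 13 S phase promoters (38.5%) and in 0 of 12 G2 and mitosis promoters, beside 1.91% of all 27025 promoters of that length. The 5 were Mcm5, Mcm6, Mcm7, Cdc6 and Hells. For Mcm5, Mcm6 and Mcm7 the check against transcript starts gave no match on either strand. The CHR letters, which are short and frequent, stood in 3 of 13 S phase promoters (23.1%) and in 8 of 12 mitosis promoters (66.7%), beside 25.5% of all. CCAAT stood in 9 of 13 (69.2%) and in 11 of 12 (91.7%), beside 34.5% of all. The Ube2c window held 6 CCAAT matches on either strand, with the CHR letters 29 bases before the start. In Ccnb2 the CHR letters lay 167 bases before it, further out than its CCAAT matches at 87, 54 and 21. Over the mitosis promoters the CHR distances ran from 18 bases in Cdc20 to 220 in Birc5. These matches are letters in a window and do not show that a factor bound there.

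Organoids were compared with crypts, the tissue they had been grown from. The cycle genes kept no common direction: the median log2 fold change of the 34 was -0.12, and that of all tested genes was 0.00. Of the 34, 2 rose, beside 23.4% of all tested genes, and 12 fell, beside 24.2% of all; 20 were not called. All crypt libraries lay above all organoid libraries for 12 of the 34 (22% of all tested genes), and all organoids above all crypts for 2, Pcna and Cdc6 (16.4% of all). The mean was higher in crypts than in organoids for 18 genes and lower for 16.

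**Figure D2:**
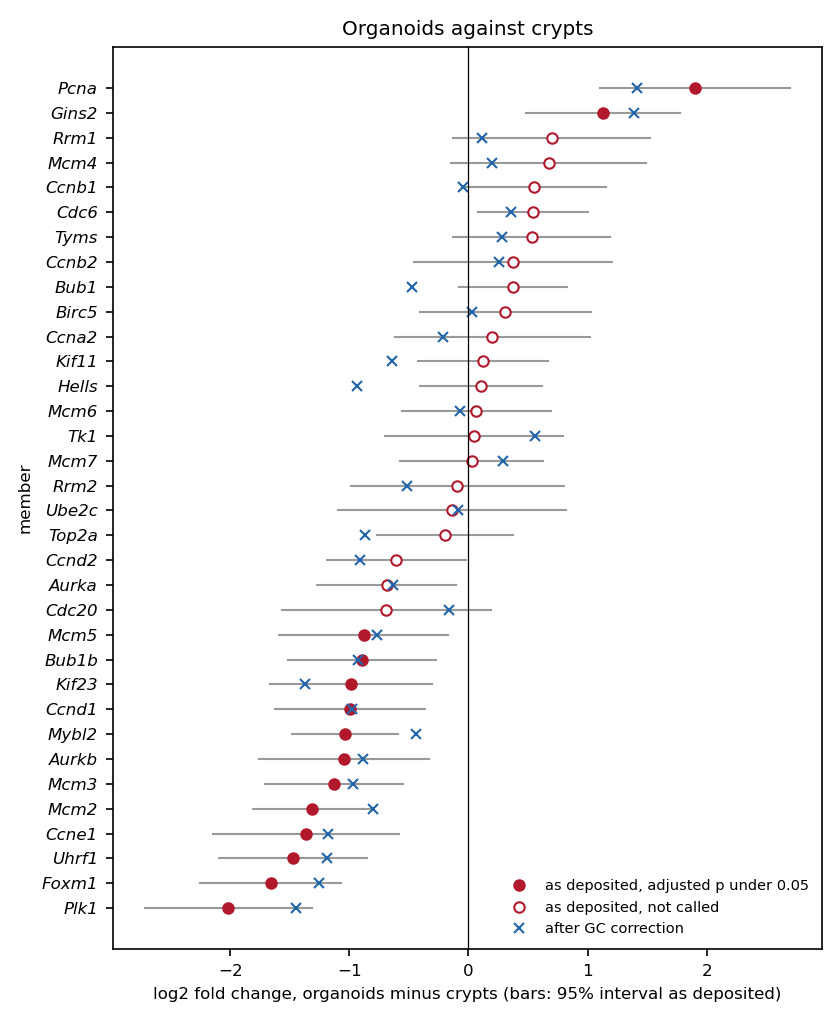
Log2 fold change of each of the 34 genes, organoids minus crypts, from limma on log2(RPKM + 1), with 95% intervals (grey bars); filled circles passed an adjusted p of 0.05, open circles did not, and crosses give the value after removing each library's trend with GC content. Pcna (1.90) and Gins2 (1.13) lie to the right and Plk1 (-2.01) and Foxm1 (-1.66) to the left, and Hells moves furthest from circle to cross.

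GC content moved with this comparison. Across 11591 genes the log2 fold change, organoids minus crypts, had a Spearman rank correlation of -0.512 with the GC content of the transcript, and across the 34 genes one of -0.629, so that GC-rich transcripts tended to be lower in organoids. Genes share libraries here and are not independent. For villi minus crypts the coefficient over 11591 genes was 0.0675. With exon length, the Spearman coefficient over the tested genes was -0.262 for organoids minus crypts and 0.0726 for villi minus crypts. No alternative removed the trend with exon length. The 12 members that fell had a median GC content of 52.6%, the 20 that were not called 47.2% and the 2 that rose 49.3%. Over all tested genes the medians were 55.5%, 50% and 46% for those that fell, were not called and rose. Values after a GC correction, an alternative added after seeing the data, are therefore given for the genes that were called and for those whose call it changed. After it 2 rose and 14 fell (19% and 21.2% of all genes), the median of the 34 was -0.50, and that of all genes was -0.05. The tissue and a library preparation shared by its libraries cannot be told apart.

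**Figure D3:**
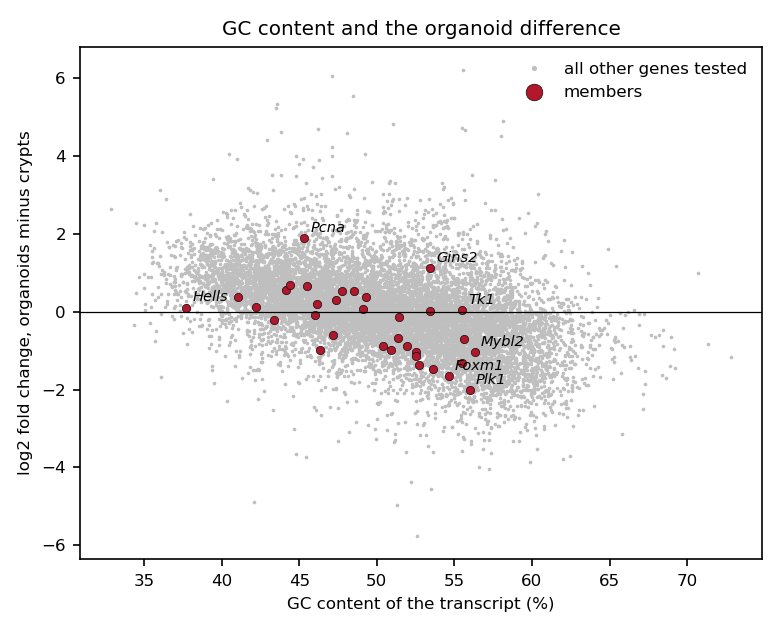
Log2 fold change, organoids minus crypts, against the GC content of the transcript in percent for the tested genes with a known GC content (grey) and the 34 cell cycle genes (red). The cloud slopes down from left to right (Spearman coefficient -0.512 over 11591 genes), Plk1 at 56% GC lies at -2.01 and Pcna at 45.3% GC at 1.90.

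The MCM2-7 subunits divided into 2 sets in organoids. Mcm2 was at 11.2, 8.97 and 7.44 RPKM in duodenal, jejunal and ileal organoids, below the lowest crypt library at 20.1. It fell by 1.31 on the log2 scale (SE 0.23, limma adjusted p = 0.000573). Mcm3 fell by 1.13 (adjusted p = 0.00398) and Mcm5 by 0.88 (adjusted p = 0.0408).

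Mcm6, in contrast, was at 28.9, 30.1 and 24.2 RPKM in duodenal, jejunal and ileal organoids, inside the crypt range of 19.5 to 47.4. Its log2 fold change was 0.06 with a 95% interval from -0.56 to 0.69, and that of Mcm7 was 0.03 (-0.57 to 0.63). Mcm4, the least abundant subunit in crypts with 3.13 to 16.8 RPKM, was at 11.5, 15.5 and 11.7 RPKM in organoids, a log2 fold change of 0.67 (-0.14 to 1.49, adjusted p = 0.159).

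As shares of the summed MCM2-7 RPKM, Mcm2, Mcm3 and Mcm5 made up 18.8% ± 3.56, 16.1% ± 0.871 and 16.8% ± 2.06 in crypts (SD, n = 6) and 9.19% ± 1.07, 9.13% ± 1.37 and 11.4% ± 0.400 in organoids (SD, n = 3). Mcm4 went from 6.07% ± 1.91 to 13.0% ± 2.23, Mcm6 from 20.4% ± 1.71 to 27.9% ± 1.38 and Mcm7 from 22.0% ± 1.12 to 29.4% ± 1.74. Crypts and organoids did not overlap for any of the 6 shares. The shares depend on each other, because a lower share of some subunits raises that of the rest. The sum itself overlapped, with 88.8 to 107 RPKM in organoids and 99.6 to 214 in crypts. After the GC correction Mcm2 and Mcm3 still fell, by 0.80 (adjusted p = 0.0144) and 0.97 (adjusted p = 0.0108), and Mcm5 did not pass (-0.77, adjusted p = 0.0692). Mcm4, Mcm6 and Mcm7 were at 0.20, -0.07 and 0.29.

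**Figure D4:**
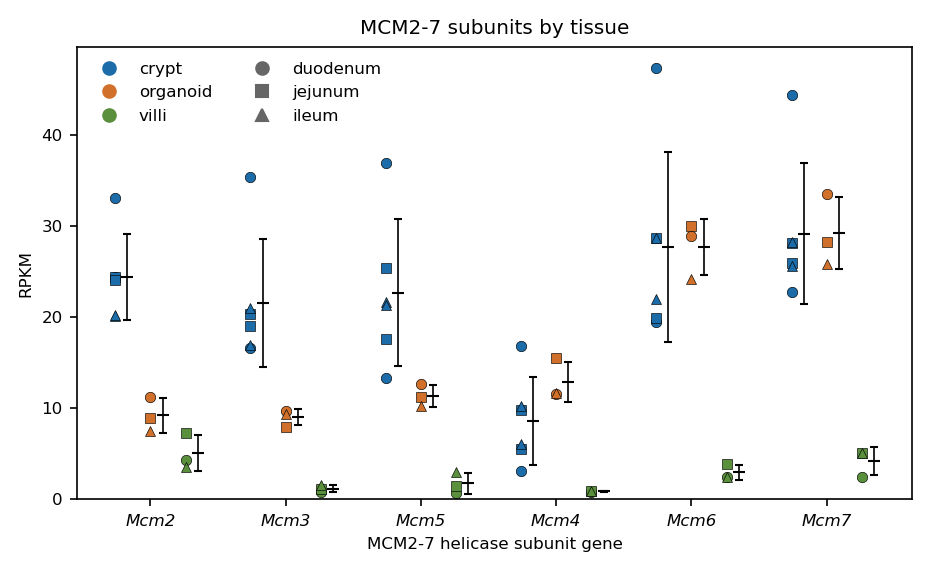
RPKM of the 6 MCM2-7 subunit genes in each library, colored by tissue and shaped by origin, with mean and SD (n = 6 crypts, 3 organoids, 3 villi). Organoids lie below every crypt library for Mcm2, Mcm3 and Mcm5 and among the crypt libraries for Mcm4, Mcm6 and Mcm7, and duodenal crypt replicate 2 is the highest point for each gene.

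The 2 genes that rose both work at the replication fork. Pcna was at 144, 110 and 145 RPKM in duodenal, jejunal and ileal organoids and at 19.98 to 86.4 RPKM in crypts, with a median of 30.7. All organoids lay above all crypts, and the log2 fold change was 1.90 (SE 0.37, limma adjusted p = 0.00112). Gins2 was at 57.4, 28.6 and 43.5 RPKM in duodenal, jejunal and ileal organoids. The crypt libraries ranged from 11.8 to 35.8, so jejunal organoids lay below duodenal crypt replicate 2 and the groups overlapped. Its fold change was 1.13 (SE 0.30, adjusted p = 0.00775), and 0.0557 was the adjusted p without the duodenal organoids. After the GC correction both rose, Pcna by 1.41 (adjusted p = 0.00679) and Gins2 by 1.39 (adjusted p = 0.00293).

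Uhrf1 fell. It was at 3.0, 5.27 and 2.36 RPKM in duodenal, jejunal and ileal organoids and at 8.19 to 17.2 RPKM in crypts, with no overlap and a fold change of -1.47 (SE 0.29, limma adjusted p = 0.00121), and of -1.19 (adjusted p = 0.00552) after the GC correction. The nucleotide supply genes were not called, with log2 fold changes of 0.53 for Tyms, 0.70 for Rrm1, -0.09 for Rrm2 and 0.05 for Tk1, and neither was Cdc6, at 0.54 (adjusted p = 0.0510, and 0.0424 with the replicate number as a block). Hells was at 0.11 (adjusted p = 0.732) as deposited and at -0.94 (adjusted p = 0.00583) after the GC correction, the lowest GC content of the 34 being its 37.7%.

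Of the 14 genes of G2 and mitosis, 4 fell (24.2% of all tested genes) and none rose (23.4% of all). Plk1, a kinase with many tasks in mitosis, was at 7.29, 6.01 and 3.79 RPKM in duodenal, jejunal and ileal organoids, far below the 20.98 to 33.5 RPKM in crypts. It fell by 2.01 (SE 0.33, limma adjusted p = 0.000342), the largest drop of the 34, and by 1.45 (adjusted p = 0.00331) after the GC correction. Aurkb, Kif23 and Bub1b fell by 1.05, 0.98 and 0.89, and by 0.88 (limma adjusted p = 0.0427), 1.37 (adjusted p = 0.0046) and 0.93 (adjusted p = 0.0161) after the GC correction. With crypt replicate 2 libraries only, Kif23 did not pass (-0.56, adjusted p = 0.141).

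Most of the mitosis list was not called. Ube2c was at 267, 86.7 and 144 RPKM in duodenal, jejunal and ileal organoids, the jejunal value below the crypt range and the others inside it, with a fold change of -0.14 (95% interval -1.10 to 0.82). The cyclins Ccna2, Ccnb1 and Ccnb2 had log2 fold changes of 0.20, 0.55 and 0.38, Birc5 0.31, Bub1 0.37, Kif11 0.12, Top2a -0.20, Aurka -0.69 and Cdc20, the activator of the anaphase-promoting complex, -0.69. For Aurka the adjusted p was 0.0510, and 0.0292 with the replicate block. After the GC correction Top2a (-0.87, adjusted p = 0.0148) and Kif11 (-0.64, adjusted p = 0.0381) also fell.

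Both transcription factors of the mitosis program fell. Foxm1 was at 3.45, 3.52 and 1.81 RPKM in duodenal, jejunal and ileal organoids and at 8.37 to 15.4 RPKM in crypts, a fold change of -1.66 (SE 0.27, limma adjusted p = 0.000395). Mybl2 was at 1.55, 1.31 and 0.627 RPKM and at 2.83 to 5.02 RPKM in crypts, a fold change of -1.04 (SE 0.21, adjusted p = 0.00138). Neither gene's groups overlapped. Foxm1 fell also after the GC correction (-1.26, adjusted p = 0.00255), and Mybl2, the most GC-rich of the 34 at 56.3%, did not pass (-0.44, adjusted p = 0.103).

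Of the G1 cyclins, Ccne1 was at 3.02, 1.73 and 1.34 RPKM in duodenal, jejunal and ileal organoids and at 2.91 to 14.4 RPKM in crypts, so that duodenal organoids overlapped the lowest crypt library. It fell by 1.36 (SE 0.36, limma adjusted p = 0.00762), and by 1.18 (adjusted p = 0.0172) after the GC correction. Ccnd1 was at 16.4, 24.8 and 24.5 RPKM in organoids, below all crypts, and fell by 0.99 (SE 0.29, adjusted p = 0.0139) as deposited and by 0.98 (adjusted p = 0.0173) after the correction. Ccnd2 had a fold change of -0.61 (adjusted p = 0.0807), and of -0.91 (adjusted p = 0.0218) after the GC correction. With the replicate block it passed too (adjusted p = 0.0265).

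The calls against crypts depended on single libraries. Without the ileal organoids 8 of the 34 passed, 2 higher and 6 lower; Mcm5, Ccnd1, Ccne1, Aurkb, Bub1b and Kif23 were lost. Mcm5 also failed without crypt replicate 1 of jejunum (adjusted p = 0.0765) or ileum (0.0510), without the duodenal (0.0622) or jejunal organoids (0.111) and without the jejunal villi (0.0577). Aurkb failed without the jejunal organoids (0.109) and Kif23 without the duodenal ones (0.0882). Without duodenal crypt replicate 2, the highest crypt library for most of the genes, 20 passed, 8 higher and 12 lower. The 6 gained all rose by limma: Mcm4 by 0.95 (adjusted p = 0.0132), Tyms by 0.69 (0.0457), Rrm1 by 0.98 (0.0102), Cdc6 by 0.61 (0.0251), Ccnb1 by 0.73 (0.0136) and Bub1 by 0.52 (0.0152). Mcm4, Rrm1, Ccnb1 and Bub1 also passed with crypt replicate 1 libraries only.

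Markers of other intestinal cell types were compared between organoids and crypts as well, and only some of these lists moved in 1 direction. Of 12 enteroendocrine markers 8 rose and none fell (23.4% and 24.2% of all tested genes), and their sum was 1352 to 2906 RPKM in organoids and 219 to 732 in crypts. The hormone gene Cck, for example, was at 578, 358 and 945 RPKM in duodenal, jejunal and ileal organoids and at 7.65 to 70.7 RPKM in crypts. The sum of 8 tuft cell markers was 36.6 to 57.4 RPKM in organoids and 8.61 to 24.9 in crypts, and that of 6 goblet cell markers 15660 to 35390 and 5341 to 25780. Enteroendocrine and tuft sums did not overlap between the tissues, and goblet sums did. Alox5ap made up 48.8% to 76.7% of the tuft sum in organoids. Without it the tuft sums overlapped, with 10.4 to 24.5 RPKM in organoids and 7.13 to 17.9 in crypts. Among the tuft markers Alox5ap and Rgs13 rose, by 2.57 and 2.28, and Avil fell by 0.88. Of the 12 stem cell markers 3 rose and 3 fell. Enterocyte markers past the threshold also went both ways, with Fabp1 at 3.03 and Lct at -2.93. Among the Paneth cell markers Mmp7 alone was called, at 1.23. The part of these cell types in the cell cycle genes' differences was not tested.

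Other genes of these processes moved both ways in organoids. All genes tested are the background here too, with 23.4% higher and 24.2% lower. The genes given first for each of the next 3 lists are those with the smallest p, and they all fell; the risers were chosen after their values were seen. Of 46 other licensing and replication genes 15 rose and 12 fell, with Lig1 at -2.37, the DNA polymerase subunit Pold1 at -1.62 and the chromatin assembly factor subunits Chaf1a and Chaf1b at -1.51 and -1.39. Among the risers were Rpa3, a subunit of the single-strand binding protein, at 1.86 and the clamp loader subunit Rfc4 at 1.77. Of 46 other mitosis genes 11 rose and 13 fell, with Fzr1, an activator of the anaphase-promoting complex in G1, at -2.14 and the condensin subunit Ncapd2 at -1.95, and with Pttg1 (securin) at 1.29. Of 26 other G1/S control genes 7 rose and 8 fell. E2f2 was at 1.5, 2.21 and 0.858 RPKM in duodenal, jejunal and ileal organoids and at 14.7 to 37.5 RPKM in crypts, a fold change of -3.11 (SE 0.31, limma adjusted p = 1.62e-05), and the phosphatase gene Cdc25a was at -2.09, while Cks1b, a partner of the cyclin-dependent kinases, was at 1.89. After the GC correction 5 rose and 11 fell of the licensing and replication genes, 0 and 17 of the mitosis genes and 3 and 10 of the G1/S genes (19% and 21.2% of all genes). Lig1, Fzr1 and E2f2 were then at -2.08, -1.32 and -2.49 and Cks1b at 1.76, each past the threshold, while Rpa3 (0.98, limma adjusted p = 0.0922) and Pttg1 (0.87, adjusted p = 0.0614) did not pass. Of 14 CDK inhibitors and antiproliferative genes Btg1 and Ccng1 rose, by 1.62 and 1.43, and Cdkn1a (p21) fell by 1.60 (adjusted p = 0.0155). Cdkn1a spread from 49.0 to 267 RPKM over the crypts, highest in replicate 2 of ileum and jejunum, and was at 28.0, 25.7 and 35.9 RPKM in organoids.

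Within a library, the S phase genes were compared with the mitosis genes by the difference of their mean log2(RPKM + 1). The difference was 0.20, 0.38 and 0.32 in duodenal, jejunal and ileal organoids. In the crypts it lay between -0.17 and 0.14, with duodenal replicate 2 as the single library above 0, and in villi it was 0.27, 0.04 and -0.23. Every organoid library lay above every crypt library, while villi spread over both. This order rested on the mean. With the median over the genes in its place the difference was -0.13, 0.49 and 0.11 in duodenal, jejunal and ileal organoids and -0.31 to 0.15 in crypts, so that the groups overlapped, and the organoid mean went from 0.30 to 0.16. The lists' median log2 fold changes, organoids minus crypts, were 0.06 for S phase and -0.17 for mitosis, and 0.12 and -0.55 after the GC correction.

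**Figure D5:**
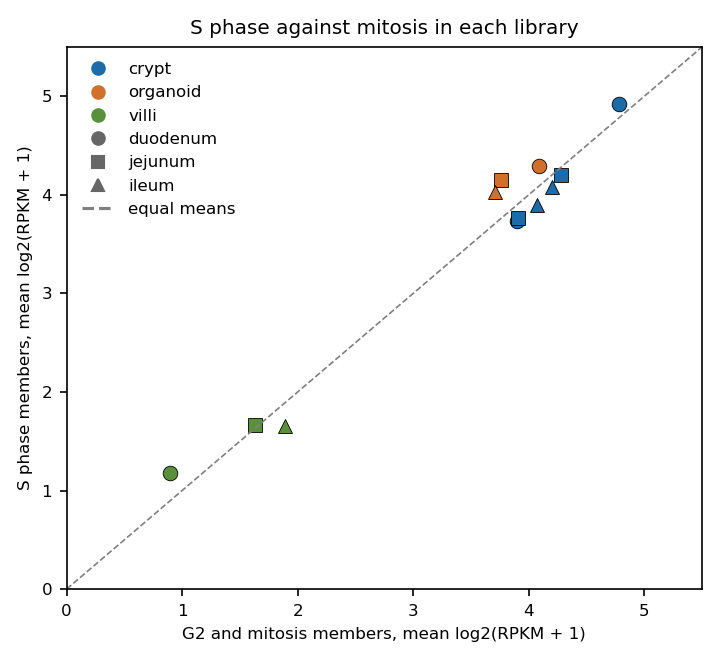
Mean log2(RPKM + 1) of the 15 S phase genes against that of the 14 G2 and mitosis genes in each library, colored by tissue and shaped by origin, with the line of equal means dashed. Organoids lie above the line by 0.20 to 0.38, crypts between -0.17 and 0.14 of it, and villi lie far below both on each axis.

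Against villi, organoids were higher for 33 of the 34, beside 36.1% of all tested genes, and none was lower (25.8% of all). All organoids lay above all villi for 33 (41.3% of all). The median log2 fold change was 2.48, beside 0.22 for all genes, and the ratio of means ranged from 1.46 for Plk1 to 38.6 for Hells. Gins2 had the largest fold change, 4.06 (SE 0.35, limma adjusted p = 2.28e-06). Plk1 was the gene not called, at 0.54 (95% interval -0.27 to 1.35, adjusted p = 0.226), and its organoid levels of 3.79 to 7.29 RPKM overlapped the 1.39, 4.68 and 5.66 RPKM in duodenal, jejunal and ileal villi. After the GC correction it passed, and 34 of 34 were higher.

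Whether the cycle genes differ along the length of the intestine was asked over all tissues and within crypts, and limma called 0 of the 34 in each case. Over all tissues the ileum minus duodenum calls were 0.47% of all genes higher and 0.205% lower, for jejunum minus duodenum 0% in each direction, and for ileum minus jejunum 0.0342% and 0.00855%. In the crypts alone the shares were 0.0266% and 0.00885% for ileum minus duodenum, 0% in each direction for jejunum minus duodenum, and 0.0266% and 0% for ileum minus jejunum. At an unadjusted p under 0.05, 1, 1 and 0 of the 34 passed over all tissues (8.39%, 2.89% and 4.39% of all genes) in the same order, and 0 in each crypt comparison (4.28%, 1.19% and 1.82%). By the other tool, limma-voom on recovered reads, 0 were called throughout. Across the tested genes, the fold changes for jejunum minus duodenum over all tissues had a Spearman coefficient of 0.426 with exon length. For ileum minus jejunum it was -0.408 and for ileum minus duodenum 0.028, and in crypts alone it lay between -0.0567 and 0.049. This trend was not removed.

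The gene with an unadjusted p under 0.05 was Ccnd1 in both cases. It was higher in ileum than in duodenum by 0.91 (limma adjusted p = 0.262) and in jejunum than in duodenum by 0.65 (limma adjusted p = 0.998). In crypts its level was 40.0 and 32.4 RPKM in duodenum, 54.2 and 33.9 in jejunum and 65.6 and 45.2 in ileum (replicates 1 and 2), and in villi 1.33, 5.74 and 7.74 RPKM in the same order. Duodenum was the lowest origin in organoids as well. Both ileal crypt libraries lay above both duodenal ones, and the jejunal libraries overlapped those of both other origins.

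The precision differed between these fits. Over all tissues the 95% interval of ileum minus duodenum lay within 1 log2 unit of 0 for 27 of the 34 genes. In crypts, with 2 libraries per origin, it did so for 2 genes, and the median of the 34 was -0.24. Rrm2 had the largest crypt difference, -1.17 for ileum minus duodenum, and came to 8.90 and 41.2 RPKM in the 2 duodenal libraries, so its spread within an origin exceeded the difference between origins.

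That spread ran through the list. In duodenum crypt replicate 2 exceeded replicate 1 for 31 of the 34 genes, with a median log2 difference of 0.996, beside 73.8% of all tested genes and a median of 0.47. In jejunum replicate 2 was the higher for 3 of the 34 (49.4% of all genes) with a median of -0.41, and in ileum for 9 (57.7% of all) with a median of -0.20. Ccnd1, Ccnd2 and Kif23 were the 3 genes lower in duodenal replicate 2. Stem cell markers had median differences of -0.13, -0.83 and -1.06 in duodenum, jejunum and ileum. Of the 12, replicate 2 was the higher for 4, 0 and 0 in the same order. In duodenum they thus did not share the rise of the cycle genes. The parts of cell composition and of the share of reads in genes in the replicate difference were not tested.

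Among the villi, which have 1 library per origin, the duodenal library was lowest for 30 of the 34 genes, as it was for 58.9% of all tested genes, and the ileal library was highest for 22 (54.7% of all). The summed level of the 34 was 55.4, 107 and 131 RPKM in duodenal, jejunal and ileal villi. Paneth cell markers, which belong to the crypt, summed to 259, 1142 and 2408 RPKM in the same order. In crypts they summed to 35260, 47230 and 133800 RPKM in replicate 1 and to 6403, 27720 and 48340 in replicate 2. In organoids the sums were 42190, 46000 and 94120 RPKM. The Paneth sums thus rose toward the ileum in crypts and organoids as well. Leukocyte markers summed to 80.7 to 120 RPKM in villi, 10.7 to 73.2 in crypts and 12.9 to 21.8 in organoids, and stromal markers to 33.2 to 93.4, 1.83 to 15.8 and 5.67 to 9.27. Lyzs, which encodes a lysozyme, made up 51.5% to 92.0% of the leukocyte sum in crypts, and the other 14 markers summed to 4.16 to 8.60 RPKM there. The T cell gene Cd3e was at 17.5, 11.4 and 6.09 RPKM in duodenal, jejunal and ileal villi, at most 0.240 in crypts and at most 0.0749 in organoids. Vim made up 76.4% to 86.0% of the stromal sum in organoids. In all 3 organoid libraries 7 of 15 leukocyte and 6 of 15 stromal markers were listed at 0, among them Cd3d, Cd3g, Col1a2, Col3a1 and Dcn. The part of crypt cells or other dividing cells in the villus levels was not tested.

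The difference in ileum minus duodenum between villi and crypts was tested in a model that takes the spread of the single libraries to equal that of the crypt replicates. It was above 0 for 32 of the 34 with a median of 0.96, beside 0.22 for all genes, and 0 of the 34 were called (0% of all genes in each direction). Cdc20 had the largest value, 2.42 (unadjusted p = 0.018, limma adjusted p = 1), and was the 1 gene with an unadjusted p under 0.05 (3.65% of all genes). It was at 0.813, 4.76 and 7.13 RPKM in duodenal, jejunal and ileal villi. For organoids against crypts the same difference had a median of -0.07, 0 of the 34 were called (0% of all genes in each direction) and 0 had an unadjusted p under 0.05 (2.62% of all genes). For none of the 34 did the 95% interval of either difference lie within 1 log2 unit of 0. limma-voom also called 0 in both.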

How the data were processed

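Per the labels' protocols, poly(A) RNA went through 2 rounds of selection and a SOLiD 4 read 50 bp of each fragment. Alignment to mm9 used BWA, per the submitters' processing notes. The counting rule, its use of strand and the versions are not given in these sources, so reads of overlapping or antisense genes cannot be told apart. Per the file headers, the authors deposited an RPKM for each transcript. A symbol with several transcripts was represented by that of the longest exon length. RPKM values were whole multiples of 1 read in at least 99.96% of values (tolerance 0.02 reads), which gave the read numbers.

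The members and lists were chosen with earlier results of these data known. All 34 members may be named, and of each other list up to 4 genes with the smallest p per comparison past the threshold. Beyond this rule, risers in organoids minus crypts were chosen after their values were seen, and single marker genes were named as well.

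limma 3.58.1 (R 4.3.3) with a mean-variance trend was fitted to log2(RPKM + 1), because the unit was RPKM; this scale understates changes of low genes. Tissues and origins were compared in an additive model over 12 libraries (7 residual degrees of freedom, 11691 genes with at least 10 reads at the median depth in 3 libraries), crypts alone with 3 degrees of freedom (11298 genes), and differences between tissues over 9 group means (12597 genes). P-values are two-sided, with Benjamini-Hochberg adjustment across every gene tested. The scripts were tested on simulated data. GC content came from GENCODE transcripts, and the correction removed a lowess trend with a span of 0.3 from each library.

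The labels number crypt libraries 1 and 2 at each origin. Deviations of equal numbers from their origin's mean correlated at 0.419, 0.506 and 0.789 for the 3 pairs of origins. The labels do not say what libraries of equal number share. The part of cell composition in these correlations was not tested. The replicate block was run as an alternative. Promoters are those of RefSeq; the orientation was along the gene for the 22 of 27 where transcript starts matched, and Mcm5, Mcm6, Mcm7, Aurka and Mybl2 matched on neither strand. Alternatives covered the pseudocount, the filter, the scaling, the tool, the transcript, the block and each library left out.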

Additional observations from a re-analysis of the deposited data

Results flagged for a closer look

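For 7 of the 34 genes 1 crypt library lay far above the other 5, by the gap to the next library over the whole range, and each time it was duodenal crypt replicate 2. Mcm3 was at 35.4 RPKM there, with 16.6 to 21 in the others, and Mcm7 at 44.4 (22.7 to 28.3). Rrm2 was at 41.2 (7.68 to 11.1), which was the widest gap. Aurka was at 39.3 (21.3 to 25.3), Birc5 at 32.7 (14.7 to 18.2), Kif11 at 10.5 (4.75 to 6.45) and Mybl2 at 5.02 (2.83 to 3.53). Chance gives such a gap in about 1 of 20 groups, and 6.56% of the 11691 tested genes had one. The library was the highest of the 6 crypt libraries for 29 of the 34 genes and for 42.5% of all tested genes. The results without it are given beside the organoid comparison.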

How the results depend on the processing

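The count of members called stayed within 1.5 times of the main one in all comparisons and settings, except organoids minus crypts without the ileal organoids, where 8 of 34 passed. Leaving out each library in turn gave 8 to 20 calls there, 29 to 33 for organoids minus villi, 33 to 34 for villi minus crypts, and 0 for each origin comparison. The block changed no call of a tissue comparison beyond Cdc6, Ccnd2 and Aurka in organoids minus crypts, where it gave 17 calls, and 19 with the GC correction. With limma-voom the median of all genes was -0.69 for villi minus crypts, and 34 of 34 fell. The mean difference of S phase and mitosis genes went from 0.30 to 0.156 in organoids and from 0.03 to -0.281 in villi with the median over members.

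Genes whose sign turned were all uncalled as deposited and all in organoids minus crypts. With quantile normalization Mcm7 was at -0.0572, Rrm2 at 0.0199 and Tk1 at -0.15. With limma-voom Mcm6 was at -0.23, Mcm7 at -0.27, Tk1 at -0.26, Hells at -0.12, Ccna2 at -0.10 and Kif11 at -0.14. With crypt replicate 1 only, Rrm2 was at 0.17 and Ube2c at 0.0786, and with replicate 2 only, Mcm7 was at -0.0857, Tk1 at -0.22 and Ccna2 at -0.0893. With the GC correction, with or without the block, Mcm6 was at -0.0746, Hells at -0.94, Ccna2 at -0.21, Ccnb1 at -0.0478, Bub1 at -0.48 and Kif11 at -0.64. With single libraries left out, the ranges were -0.0583 to 0.25 for Mcm6, -0.11 to 0.19 for Mcm7, -0.26 to 0.27 for Rrm2, -0.28 to 0.25 for Tk1, -0.17 to 0.36 for Hells, -0.0149 to 0.48 for Ccna2, -0.072 to 0.64 for Ccnb2, -0.67 to 0.21 for Ube2c and -0.11 to 0.28 for Kif11. The cause was not tested.

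Of the genes that fell in organoids, Mcm5 failed with a pseudocount of 0.1 (adjusted p = 0.0702), with no filter (0.0709) and with the GC correction (0.0692), and Kif23 with quantile normalization (0.0755). With crypt replicate 2 only, Ccnd1 (0.0652), Bub1b (0.0742) and Kif23 (0.141) failed. The failures with single libraries left out are given beside the organoid comparison. Of the genes higher in organoids than in villi, Ccne1 failed with no filter (limma adjusted p = 0.0943) and with quantile normalization (0.0634). Mcm2 failed with median-of-ratios scaling (0.0960). Ccne1, Mcm2, Foxm1 and Mybl2 each failed in that comparison with some single libraries left out. For the differences between tissues, the fit gave no value without the duodenal or ileal library of the villi or organoids concerned. Depth limits the villus values of the 5 members with fewer than 10 reads in a villus library.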
